A study of Homo sapiens with 6 samples.

Results

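Granins and neuropeptides are the cargo of the large dense-core vesicles through which sympathetic and neuroendocrine cells secrete. The group examined here held 10 genes fixed by name: the granins CHGA, CHGB, SCG2, SCG3 and SCG5, the granin-like precursor VGF, the peptide precursors VIP, GAL and NPY, and the convertase PCSK1. Every probe set whose platform symbol was one of these names was taken, and where a gene had several, the one brightest on average across the 6 arrays led. This gave 10 probe sets for 9 of the 10 genes, out of 54675 probe sets and 19775 genes with a probe set of their own. No probe set was named PCSK1 in the annotation used, and PCSK1 was not analysed here. GAL had 2 probe sets and each of the others had 1.

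The arrays measured RNA of the human neuroblastoma line SK-N-AS in 3 cultures of 2 arrays each. Monolayer cells were attached and had received no pretreatment. Sphere cells, also without pretreatment, were grown as spheroids in medium lacking serum. The iCSC cells had been exposed as a monolayer to 5AdC, an inhibitor of DNA methylation, at 2.5 uM for 5 days before they were moved to the same kind of spheroid culture. All 3 groups come from 1 line. The labels do not state that paired arrays stand for independently grown cells. A p-value here therefore reflects array-to-array spread alone, which may be technical. Values are GCRMA signals on a log2 scale, a measure of probe brightness per probe set, and log2 5 was taken as the limit of background. The number of arrays limits the precision.

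In sympathetic cells, granins drive the budding of secretory granules and help to pack catecholamines and peptides into them. Peptide precursors are sorted into the same granules, where convertases cut them at pairs of basic residues and carboxypeptidases and an amidating enzyme finish the active peptide. Chromogranin A in blood and VIP secretion are known features of differentiating neuroblastic tumours, and the transcriptional repressor REST keeps many of these genes silent outside neural and endocrine cells.

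A promoter element long studied in these genes is the cAMP response element, TGACGTCA, bound by CREB. Promoter windows from RefSeq (GRCh38.p14, 250 bases before to 50 after each gene's start) were matched by symbol for 6 of the 9 measured genes: CHGA, SCG3, SCG5, VGF, VIP and NPY. The 100 bases before the start are shown for 4 of them, to set a gene that rose in Sphere and kept a high level in iCSC (CHGA) beside one that rose and fell back (VIP), one that did not rise (VGF) and one under the limit throughout (NPY). Capitals mark the element or its short form TGACG, which on the opposite strand reads CGTCA.
CHGA, chr14:92923050-92923149, plus strand: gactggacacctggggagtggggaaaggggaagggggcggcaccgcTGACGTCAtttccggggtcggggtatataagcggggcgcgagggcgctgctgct
VIP, chr6:152750697-152750796, plus strand: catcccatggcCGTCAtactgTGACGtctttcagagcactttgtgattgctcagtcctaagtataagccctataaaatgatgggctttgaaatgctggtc
VGF, chr7:101165570-101165669, minus strand: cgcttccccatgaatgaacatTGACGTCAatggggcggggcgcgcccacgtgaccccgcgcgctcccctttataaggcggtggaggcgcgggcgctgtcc
NPY, chr7:24284090-24284189, plus strand: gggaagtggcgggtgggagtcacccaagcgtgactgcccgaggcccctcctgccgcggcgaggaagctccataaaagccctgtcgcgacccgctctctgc

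The full element lay 54 bases before the start of CHGA and 79 bases before that of VGF, and 1.85% of the 35116 windows of this length held it on either strand. VIP held 2 copies of the short form, 89 and 79 bases before the start, and SCG5 and SCG3 held 1 each, against 24.6% of all windows. These short forms are also part of every full element. NPY held neither in this window. CHGA and VGF, which share the full element, differed in their levels across the cultures, as described below.

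The window of SCG3 held the letters TTCAGCACC, the left part of the element that REST binds, starting 9 bases after the gene's start. Only 0.376% of the windows held them on either strand, and none of the other 5 windows did. The rest of the element was not searched for. The site is shown because the REST signal itself changed between the cultures; capitals mark the match.
SCG3, chr15:51681511-51681537, plus strand: TTCAGCACCcacagggcggacagcgct

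The GC box GGGCGG was present in the windows of CHGA, NPY, SCG3, SCG5 and VGF and in 45.0% of all windows, and the E-box CANNTG in those of CHGA, SCG3, SCG5 and VGF and in 68.7% of all windows. No window of the 6 held the AP-1 site TGANTCA, which 7.71% of all windows did. These matches are descriptions of the sequence and not evidence of binding.

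Of the 9 measured genes, 7 reached log2 5 on at least 2 arrays and entered the test, and SCG5 and NPY were under it on all 6. SCG2 and VGF were above the limit in every culture. CHGA lay at it in Monolayer, with 1 array under it, so it needed an array of another culture to enter. CHGB, SCG3, VIP and GAL were under it on both Monolayer arrays, so these 4 were tested because of their Sphere or iCSC signal and had to be higher than Monolayer on some of those arrays. Arrays of the same culture correlated at 0.984 or more (Pearson's r over 10459 tested genes, which are not independent replicates), and arrays of different cultures at 0.729 to 0.859. Signal at the 3' end of ACTB minus that at its 5' end, which grows as RNA degrades, was 1.40 to 1.47 in iCSC, 1.16 to 1.25 in Monolayer and 1.21 to 1.22 in Sphere. Its part in the differences between iCSC and the other cultures was not tested.

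The identity of the line was checked against markers of neuroblasts. PHOX2A, a homeobox factor of sympathetic neuroblasts, had signals of 3.53 and 3.69 in Monolayer, 9.45 and 8.87 in Sphere, and 5.83 and 7.01 in iCSC, so this marker was under the limit in Monolayer. HAND2, a factor of the same lineage, was at or near the limit in Monolayer at 5.08 and 4.99, and TH, which makes the precursor of catecholamines, was under it at 2.43 and 2.32. GATA3 and ISL1 were above it in all 3 cultures. Of the 7 measured neuroblast markers, 3 were above the limit on both Monolayer arrays, 6 on both Sphere arrays and 5 on both iCSC arrays. In the comparisons with Sphere, most neuroblast markers were called in the same direction as most granins and peptides. Of the 6 tested, 5 were called higher and 0 lower in Sphere than in Monolayer (limma, median difference 2.60). In iCSC against Sphere 0 were called higher and 5 lower (median -2.06). In iCSC against Monolayer 2 were called higher, 2 lower and 2 not (median 8.5e-05, against 2.51 for the granins and peptides). With values under log2 5 set to 5, the median of the granins and peptides was 0.805. Shares over all tested genes were 30.0% higher and 29.1% lower, 19.3% and 19.2%, and 29.0% and 26.6% in these comparisons. PHOX2A and TH were under the limit on both Monolayer arrays, and GATA2 on both iCSC arrays. Each could enter the test only through the other cultures. The filter favoured higher calls there, as it did for several granins and peptides, and the counts are given as a description. The HAND2 call in iCSC against Sphere was lost under some alternatives, among them no filter and no variance moderation. GATA3 differed by -4.12 and ISL1 by -2.48 between iCSC and Sphere. The part of these markers in the differences of the granins and peptides was not tested. In bulk RNA, fewer cells of a type and less RNA per cell cannot be told apart.

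**Figure D1:**
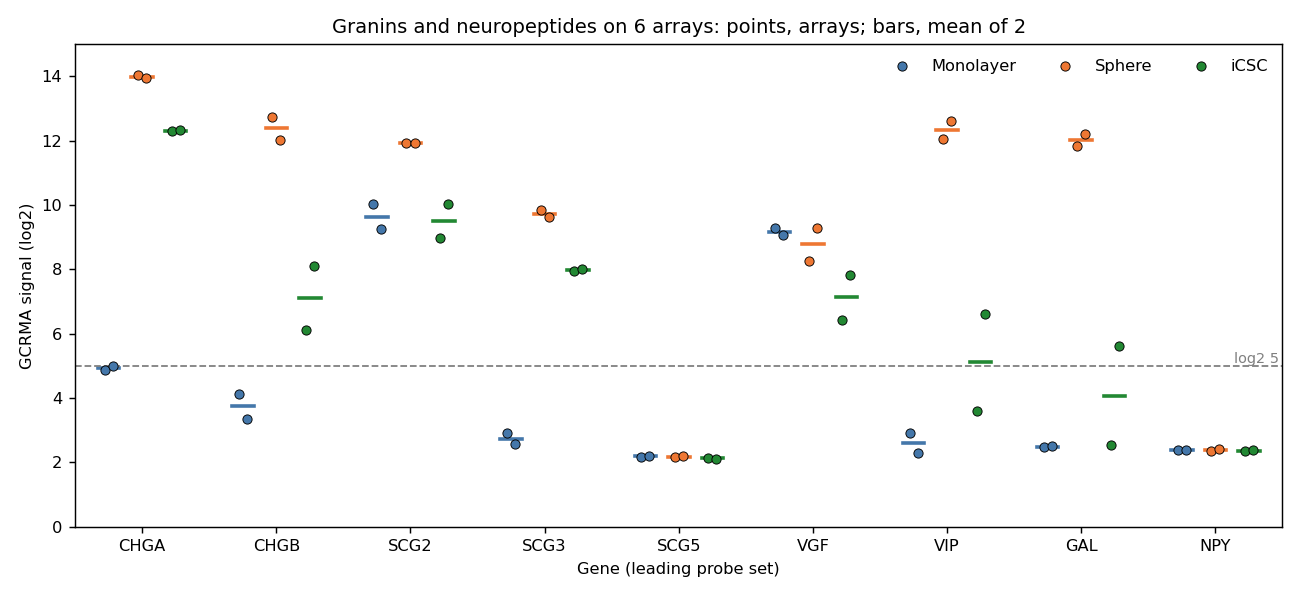
GCRMA signal (log2, y axis) of the leading probe set of 9 genes (x axis) on each of 6 arrays; points are arrays, horizontal bars the mean of the 2 arrays of a culture, and the dashed line log2 5. CHGA, CHGB, SCG3, VIP and GAL stand between 9.62 and 14.02 on the Sphere arrays and at or under about 5 in Monolayer, and SCG5 and NPY stay under the limit in all cultures.

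The first comparison set Sphere against Monolayer, that is, serum-free spheroids against attached cells. The chromogranins CHGA and CHGB, the granin SCG3, the peptides VIP and GAL, and, by a smaller amount, SCG2 were higher in Sphere, whereas VGF did not pass the test. In all, 6 of the 7 tested genes were called higher and none lower (limma, adjusted p under 0.05), while 30.0% of all tested genes were called higher and 29.1% lower. Of the 6, 4 were under the limit in Monolayer and could enter only through Sphere or iCSC. CHGA had 1 Monolayer array under it and also needed an array of those cultures. The filter therefore favoured this direction, and the count is given as a description. The median difference of the 7 genes was 8.64, or 7.02 with values under log2 5 set to 5, against 0.01 over all tested genes.

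CHGA, the acidic chromogranin that nucleates dense-core granules, had signals of 4.89 and 5.00 in Monolayer and 14.02 and 13.93 in Sphere. The array pairs did not overlap, and 1 of the Monolayer arrays was under the limit. The log2 difference was 9.03 ± 0.09 (SE), with a 95% interval of 8.81 to 9.26 (limma, adjusted p = 2.29e-07). CHGB, its partner chromogranin, had 4.14 and 3.34 in Monolayer and 12.74 and 12.03 in Sphere, a difference of at least 167-fold (limma, adjusted p = 6.35e-05). SCG3, which tethers chromogranin A to the granule membrane, had 2.91 and 2.57 in Monolayer and 9.83 and 9.62 in Sphere, at least 26.5-fold higher (limma, adjusted p = 9.05e-07). These 3 granins were low on both Monolayer arrays and high on both Sphere arrays.

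SCG2, the precursor of the peptide secretoneurin, was already well above the limit in Monolayer. Its signals were 10.02 and 9.26 in Monolayer and 11.91 and 11.93 in Sphere, and the arrays did not overlap. The difference was 2.28 ± 0.37 (log2, SE; 95% interval 1.38 to 3.17; limma, adjusted p = 0.00218). Over 17 alternative settings the adjusted p ranged from 0.000815 to 0.0507, and the call was lost without variance moderation (0.0507). VGF, a precursor induced by nerve growth factor, had 9.27 and 9.07 in Monolayer and 8.25 and 9.29 in Sphere. These arrays overlapped, and the difference of -0.40 ± 0.50 did not pass the test (95% interval -1.61 to 0.80; limma, adjusted p = 0.527). Without Sphere replicate 1 it was 0.12, so its sign rests on that array.

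VIP, a vasodilating and trophic peptide of sympathetic neuroblasts, had signals of 2.92 and 2.29 in Monolayer and 12.05 and 12.62 in Sphere. GAL, the precursor of galanin, had 2.47 and 2.51 in Monolayer and 11.83 and 12.21 in Sphere. Both peptides were under the limit on both Monolayer arrays and above log2 11 on both Sphere arrays. VIP was at least 161-fold higher in Sphere (limma, adjusted p = 0.000164) and GAL at least 130-fold higher (limma, adjusted p = 0.000177). By fitted log2 difference, VIP ranked 7 and GAL 8 from the highest of the 10459 tested genes, CHGA ranked 12, CHGB 19, SCG3 79 and SCG2 769. Differences that start under the limit are overstated on this scale, so the ranks describe the deposited values only. The other GAL probe set lay between 1.85 and 2.06 on all 6 arrays and showed no such rise, so the 2 probe sets of GAL disagree.

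SCG5, known as 7B2, is the chaperone of the convertase PCSK2. It was under the limit on all 6 arrays, between 2.11 and 2.19. NPY, neuropeptide Y, the peptide stored with noradrenaline in sympathetic nerves, was likewise between 2.35 and 2.41. A signal under the limit does not show that the gene was silent, since 1 probe set per gene was measured. With no filter neither was called in any comparison, the smallest adjusted p being 0.0870 for SCG5 and 0.539 for NPY (limma).

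**Figure D2:**
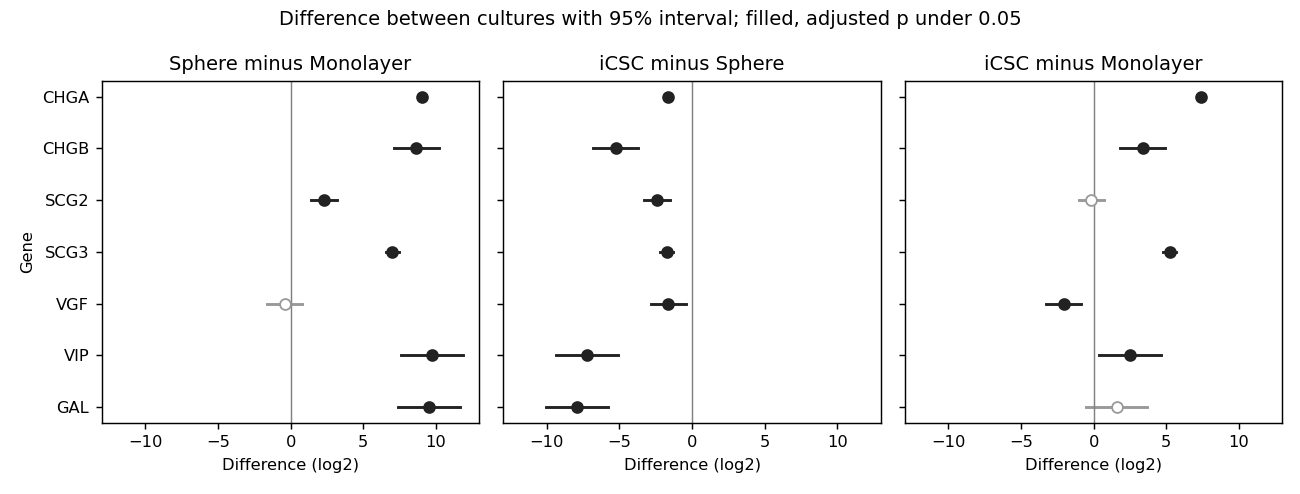
Log2 difference between cultures (x axis) of the 7 tested genes (y axis) in 3 panels, with 95% intervals as lines; filled points have an adjusted p under 0.05 (limma) and open points do not. All 7 points lie below 0 in the panel of iCSC minus Sphere, and VIP and GAL have the largest falls, -7.22 and -7.94.

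Setting iCSC against Sphere compared spheroids with and without prior 5AdC. All 7 tested genes were called lower in iCSC and none higher (limma), while 19.2% of all tested genes were called lower and 19.3% higher. VIP and GAL, under log2 5 in Monolayer and on 1 iCSC array, could not enter without a Sphere array. The filter favoured this direction for them, and the count is given as a description. The median difference was -2.43, against 0.01 over all tested genes. This comparison and the preceding one share the Sphere arrays, so their values for a gene are not independent. The genes differed in how far they fell: the 95% intervals of VIP and GAL lay entirely below those of CHGA, SCG2, SCG3 and VGF.

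CHGA and SCG3 fell but stayed well above the limit in iCSC. CHGA was 12.29 and 12.32 in iCSC, 1.67 below Sphere on the log2 scale (difference -1.67 ± 0.09, SE; 95% interval -1.90 to -1.45; limma, adjusted p = 3.88e-05). SCG3 was 7.95 and 8.01 in iCSC, a difference of -1.75 ± 0.18 (95% interval -2.20 to -1.31; limma, adjusted p = 0.000638). The iCSC arrays of both genes agreed closely and lay between those of Monolayer and Sphere.

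SCG2 fell as well, with 8.97 and 10.02 in iCSC and a difference from Sphere of -2.43 ± 0.37 (95% interval -3.32 to -1.53; limma, adjusted p = 0.00317). Its adjusted p ranged from 0.00166 to 0.0698 over 17 alternatives, and the call was lost without variance moderation (0.0698). CHGB was 6.13 and 8.10 in iCSC, a difference of -5.27 ± 0.64 (95% interval -6.82 to -3.73; limma, adjusted p = 0.00117). VGF was 6.44 and 7.82, below both Sphere arrays, with a difference of -1.64 ± 0.50 (95% interval -2.85 to -0.44; limma, adjusted p = 0.0415). The VGF call was lost under 10 of 16 alternatives, and over all 16 its adjusted p ranged from 0.0120 to 0.220. Among these were the fits that left out 1 array: Sphere replicate 2 (0.220), iCSC replicate 1 (0.139), Monolayer replicate 1 (0.0934), Sphere replicate 1 (0.0544) and Monolayer replicate 2 (0.0933). VGF differed by -0.95 without iCSC replicate 1 and by -2.33 without iCSC replicate 2.

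VIP was 3.61 and 6.61 in iCSC, 1 array under the limit and 1 above it. Its difference from Sphere was -7.22 ± 0.88 (log2, SE; 95% interval -9.35 to -5.10; limma, adjusted p = 0.00120). GAL was 2.53 and 5.62, again on either side of the limit, with a difference of -7.94 ± 0.88 (95% interval -10.06 to -5.82; limma, adjusted p = 0.000793). By fitted difference GAL ranked 7 and VIP 19 from the lowest of the tested genes. Every iCSC array of VIP and GAL lay below every Sphere array.

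The 2 iCSC arrays disagreed for 5 of the 7 genes, always with replicate 2 higher. The gap was 3.08 for GAL, 3.0 for VIP, 1.97 for CHGB, 1.38 for VGF and 1.05 for SCG2, against 0.06 for SCG3 and 0.02 for CHGA. Over all tested genes the median absolute gap between the iCSC arrays was 0.19, and 3.14% of genes had a gap of 1 or more. A gap as large as that of GAL was found in 0.105% of the tested genes and one as large as that of VIP in 0.124%. The gap moved the size of the differences from Sphere and not their direction. Without iCSC replicate 1 the difference from Sphere was -4.29 for CHGB, -5.72 for VIP and -6.40 for GAL, and without iCSC replicate 2 it was -6.26, -8.72 and -9.49. Both fits kept the 3 calls (limma, largest adjusted p = 0.00174). REST differed the other way, with a gap of -0.95. Of the 7 tested mesenchymal markers, 4 were higher on replicate 1, with FN1 (-1.63), SNAI2 (-1.29) and RUNX2 (-2.36) by more than 1, and 3 were higher on replicate 2, namely FOSL1 (0.53), PRRX1 (0.36) and VIM (0.03). Their part in the gap was not tested.

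**Figure D3:**
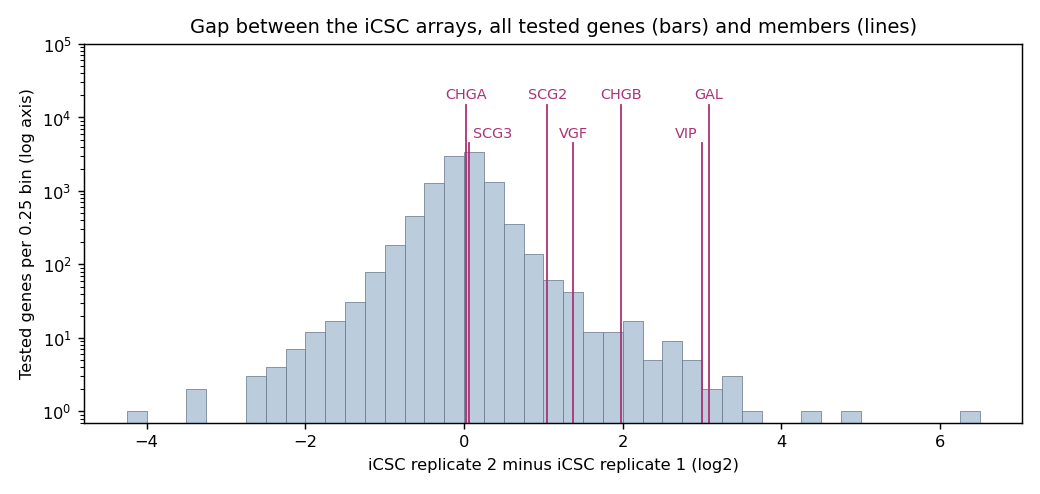
Log2 signal of iCSC replicate 2 minus that of iCSC replicate 1 (x axis), as the number of tested genes per bin of 0.25 (bars, logarithmic y axis) and as lines for the 7 tested granin and peptide genes. CHGA and SCG3 stand near 0, and CHGB, VIP and GAL stand at 1.97, 3.0 and 3.08, in the sparse upper end of the distribution.

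iCSC against Monolayer compares the pretreated spheroids with the attached cells. CHGA, CHGB, SCG3 and VIP were called higher in iCSC, VGF was called lower, and SCG2 and GAL did not pass the test (limma). Of all tested genes, 29.0% were called higher and 26.6% lower. The median difference of the 7 genes was 2.51, or 0.805 with values under log2 5 set to 5, against 0.02 over all tested genes. CHGB, SCG3 and VIP were under the limit on both Monolayer arrays. The Sphere arrays of each were enough to pass the filter, as were the iCSC arrays of CHGB and SCG3. VIP was above the limit on 1 iCSC array. This comparison shares its iCSC arrays with the preceding one and its Monolayer arrays with the comparison of Sphere and Monolayer.

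CHGA was 7.36 ± 0.09 above Monolayer (log2, SE; 95% interval 7.13 to 7.59; limma, adjusted p = 7.09e-07). SCG3 was at least 7.87-fold higher (adjusted p = 3.74e-06), and CHGB at least 4.32-fold higher (adjusted p = 0.00484, range over 17 alternatives 0.00109 to 0.0731). The CHGB call was lost without variance moderation (0.0731). Its fitted difference was 3.37, and it was 4.36 without iCSC replicate 1 and 2.38 without iCSC replicate 2. SCG2 differed by -0.15 ± 0.37 (95% interval -1.04 to 0.75; adjusted p = 0.769), and its arrays overlapped. Its sign turned without Monolayer replicate 1 (0.23) and without iCSC replicate 1 (0.38).

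VGF was lower in iCSC than in Monolayer by a log2 difference of -2.04 ± 0.50 (95% interval -3.25 to -0.84; limma, adjusted p = 0.0134, range over 16 alternatives 0.00437 to 0.113). The call was lost without variance moderation (0.113), without Monolayer replicate 1 (0.0891) and without Monolayer replicate 2 (0.0677). The difference was -1.35 without iCSC replicate 1 and -2.73 without iCSC replicate 2. VGF was thus the single gene of the 7 with its lowest mean in iCSC and its highest in Monolayer, although Monolayer and Sphere did not differ beyond their spread.

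VIP passed narrowly against Monolayer (limma, adjusted p = 0.0495, range over 17 alternatives 0.000779 to 0.230), at least 1.75-fold higher, with 1 iCSC array under the limit. The call was lost under 12 of 17 alternatives, among them those that left out Monolayer replicate 2 (0.215), Monolayer replicate 1 (0.134), Sphere replicate 1 (0.0937), iCSC replicate 2 (0.0663) and Sphere replicate 2 (0.0934). The log2 difference was 4.01 without iCSC replicate 1 and 1.01 without iCSC replicate 2. GAL did not pass (difference 1.59 ± 0.88, 95% interval -0.53 to 3.70; adjusted p = 0.172, range 0.000339 to 0.889). It was called without iCSC replicate 1 (0.000339), which left the 1 array above the limit, and it was 0.04 above Monolayer without iCSC replicate 2. The position of both peptides in iCSC therefore depends on which array is taken.

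In order of mean signal, CHGA, CHGB, SCG3, VIP and GAL were highest in Sphere, next in iCSC and lowest in Monolayer, with the step between iCSC and Monolayer within the spread for GAL. SCG2 was highest in Sphere, and its Monolayer and iCSC levels did not differ beyond their spread. These orders are within a gene, and signals of different probe sets are not compared as amounts.

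The genes whose profile lay closest to each of the 7, by Euclidean distance over the 6 arrays after values under log2 5 were set to 5 and each profile was centred on its own mean, were taken from all other tested genes. For CHGA they were DLK1, a transmembrane protein related to Notch ligands (distance 0.39), and PI15 (1.86). CHGB lay closest to ARHGAP36 (0.49) and to STMN2, a microtubule regulator of growing axons (1.30). SCG2 lay closest to the adhesion molecule L1CAM (0.34) and to ZBED5-AS1 (0.60), and SCG3 to the junction molecule JAM2 (0.33) and the tetraspanin TSPAN18 (0.51). VIP lay closest to INSM2 (1.07) and to the fatty acid binding protein FABP5 (1.42), GAL to TSPYL5 (0.68) and the matrix protease MMP9 (0.98), and VGF to IFI44 (0.77) and SIPA1L1 (0.78). With 6 arrays in 3 cultures, such nearness describes shared levels only.

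The genes that mature these peptides were called in both directions. Of 14 prohormone processing genes, 12 had a probe set and 7 entered the test: 3 were called higher and 3 lower in Sphere than in Monolayer (limma), and 1 higher and 3 lower in iCSC than in Sphere. Over all tested genes 30.0% were called higher and 29.1% lower in the former comparison, and 19.3% and 19.2% in the latter, and with 7 genes nothing is read from these counts. CPE, the carboxypeptidase that trims basic residues and helps sort granule cargo, had signals of 3.75 and 3.69 in Monolayer, 11.29 and 10.99 in Sphere, and 8.27 and 9.73 in iCSC. It was at least 70.5-fold higher in Sphere than in Monolayer (adjusted p = 2.20e-05), and it fell by 2.14 ± 0.44 (log2, SE) in iCSC relative to Sphere (adjusted p = 0.00993, alternatives 0.000406 to 0.107). The fall lost its call without Sphere replicate 1 (0.0767), without Sphere replicate 2 (0.0525) and without variance moderation (0.107). It was -1.41 without iCSC replicate 1 and -2.87 without iCSC replicate 2. CPE was under the limit in Monolayer and could enter only through Sphere or iCSC, which favoured its rise.

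PCSK1N, the precursor of the convertase inhibitor proSAAS, was above the limit only in Sphere, at 8.96 and 8.47, at least 13.1-fold above Monolayer and iCSC (limma, adjusted p = 3.17e-06 and 2.44e-05). It entered the test through Sphere, so this direction was fixed by the filter. PAM, which amidates the ends of peptides such as VIP, went the other way. Its signals were 14.25 and 14.27 in Monolayer, 12.38 and 12.44 in Sphere, and 11.36 and 11.46 in iCSC, without overlap between the cultures. The differences were -1.85 ± 0.07 from Monolayer to Sphere (adjusted p = 3.49e-06) and -1.0 ± 0.07 from Sphere to iCSC (adjusted p = 0.000105). CPD, a carboxypeptidase of the trans-Golgi network, was also lower in Sphere than in Monolayer, by a difference of -1.31 ± 0.13 (adjusted p = 0.000239). CTSL, the protease cathepsin L, was under the limit in Monolayer and at least 3.27-fold higher in Sphere (limma, adjusted p = 0.000528). CTSL could enter only through Sphere or iCSC, so the filter favoured this direction. PCSK2 was not analysed here.

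Among 22 genes of the dense-core vesicle and its release machinery, 12 entered the test, and 8 were called higher and 3 lower in Sphere than in Monolayer (limma). In iCSC against Sphere 3 were called higher and 6 lower, and in iCSC against Monolayer 5 higher and 3 lower. The shares over all tested genes were 30.0% higher and 29.1% lower, 19.3% and 19.2%, and 29.0% and 26.6% in these comparisons. With 12 genes, some of them admitted only through certain cultures as given below, nothing is read from these counts. SNAP25, a membrane fusion protein of exocytosis, had 4.18 and 3.17 in Monolayer, 11.08 and 10.63 in Sphere, and 7.33 and 8.77 in iCSC. It was at least 57.9-fold higher in Sphere than in Monolayer (adjusted p = 5.97e-05) and fell by 2.81 ± 0.52 in iCSC (adjusted p = 0.00709, alternatives 0.000546 to 0.0947). That fall was not called without variance moderation (0.0947) or without Sphere replicate 1, where it was -2.58. It was -2.09 without iCSC replicate 1 and -3.53 without iCSC replicate 2. The probe sets of SNAP25 disagree on size: without those ending in x_at or s_at, the log2 difference from Monolayer was 3.86 in Sphere, under that bound, and 0.70 in iCSC, where the call was lost (0.108). PTPRN, a membrane protein of granules, and SLC18A1, a vesicular monoamine transporter, were above the limit in Sphere only, at least 3.45-fold and at least 2.07-fold above both other cultures (largest adjusted p = 2.98e-05). UNC13A, which primes vesicles for fusion, rose at least 12.5-fold in Sphere and fell by 3.52 ± 0.33 in iCSC (adjusted p = 0.000366), where 1 array was under the limit. RAB27B, a small GTPase of granule docking, was above the limit in Monolayer only, at 9.74 and 8.92, at least 20.1-fold above the others (largest adjusted p = 6.88e-06). KIF1A, a motor of vesicle transport, was above the limit in iCSC only, at 5.95 and 6.92, and its call between Sphere and Monolayer rests on values under the limit in both. PTPRN, SLC18A1, RAB27B and KIF1A each entered the test through a single culture. The direction of that culture against the others was fixed by the filter. SNAP25 and UNC13A were under the limit on both Monolayer arrays and could enter only through Sphere or iCSC, which favoured higher calls there. SYT4, a synaptotagmin of dense-core vesicles, had 9.31 and 8.82 in Monolayer, 8.97 and 9.0 in Sphere, and 7.05 and 6.36 in iCSC, and fell by 2.28 ± 0.26 from Sphere (adjusted p = 0.000946). CADPS, a priming factor of dense-core vesicles, was under the limit on all 6 arrays.

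**Figure D4:**
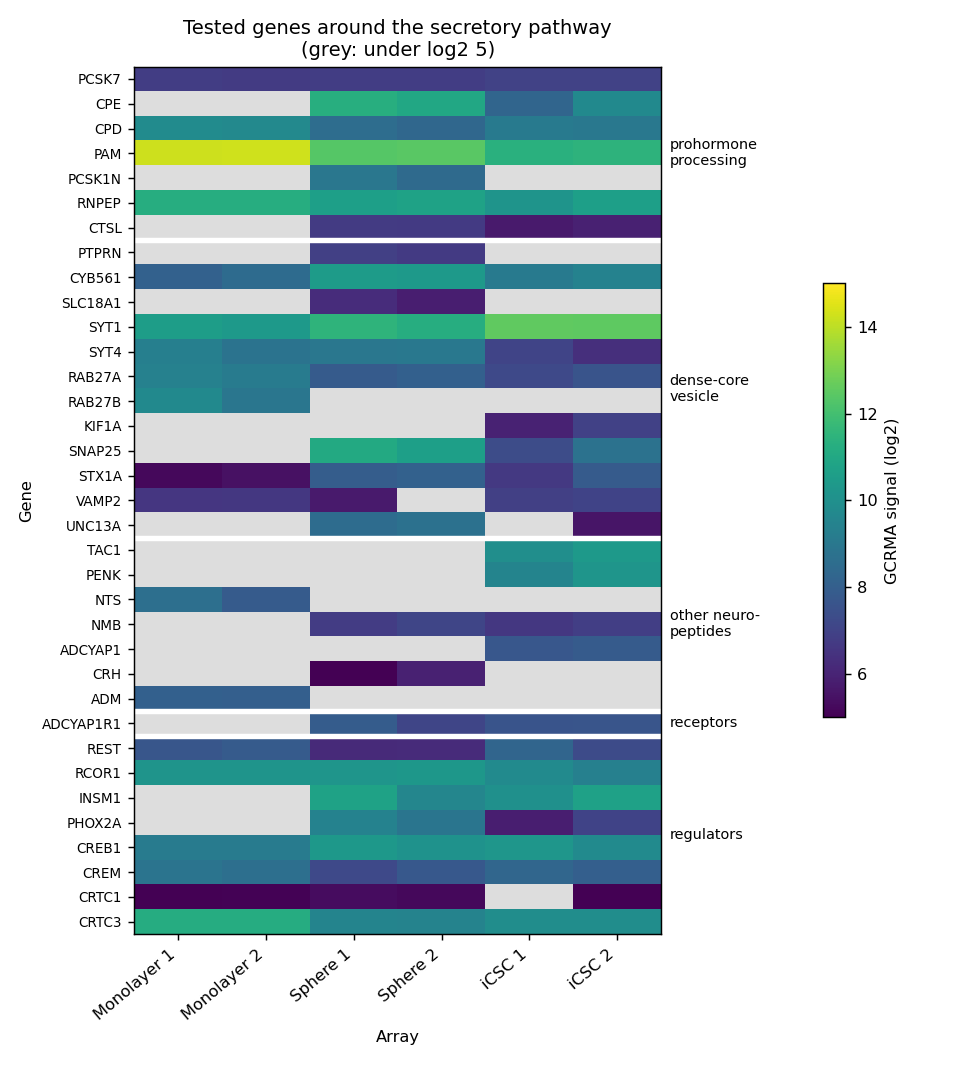
GCRMA signal (log2, colour) of the tested genes of 5 lists around peptide secretion (y axis) on the 6 arrays (x axis); grey cells are under log2 5. Colours are to be read along a row, since probe sets are not comparable as amounts. TAC1, PENK and ADCYAP1 are coloured on the iCSC arrays alone, NTS and ADM on the Monolayer arrays alone, and PCSK1N, PTPRN and SLC18A1 on the Sphere arrays alone.

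Outside the 10 genes, some peptide precursors were above the limit in iCSC alone and others in Monolayer alone. Of 32 other neuropeptide precursors, 31 had a probe set and 7 entered the test. In Sphere against Monolayer 2 were called higher and 2 lower, in iCSC against Sphere 3 higher and 1 lower, and in iCSC against Monolayer 4 higher and 2 lower (limma). The shares over all tested genes were 30.0% higher and 29.1% lower, 19.3% and 19.2%, and 29.0% and 26.6%. With 7 genes nothing is read from these counts. TAC1, the precursor of substance P, had signals of 9.96 and 10.38 in iCSC, at least 35.9-fold above Sphere and Monolayer (adjusted p = 2.89e-06 and 1.18e-06). PENK, the precursor of the enkephalins, had 9.52 and 10.23 in iCSC, at least 29.4-fold above both (adjusted p = 4.44e-06 and 2.74e-06). ADCYAP1, the precursor of PACAP and a relative of VIP, had 7.71 and 7.87 in iCSC, at least 6.91-fold above both (adjusted p = 3.66e-06 and 2.27e-06). These 3 were under the limit on all Monolayer and Sphere arrays and entered the test through iCSC, so their direction was fixed by the filter. They were high on the arrays where VIP and GAL were lower than in Sphere.

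NTS, the precursor of neurotensin, had 8.67 and 7.88 in Monolayer and was under the limit in Sphere and iCSC, at least 9.65-fold lower (limma, adjusted p = 1.34e-05 and 1.83e-05). ADM, adrenomedullin, had 8.07 and 8.04 in Monolayer and was at least 8.31-fold lower in both spheroid cultures (adjusted p = 1.21e-06 and 1.67e-06). NTS and ADM entered the test through Monolayer, so their direction was fixed by the filter. NMB, neuromedin B, was under the limit in Monolayer and at least 3.83-fold higher in Sphere (limma, adjusted p = 2.87e-05), with a signal of 6.63 and 6.86 in iCSC. NMB could enter only through Sphere or iCSC, so the filter favoured this direction. CRH was called higher in Sphere than in Monolayer in 1 of its 2 probe sets (at least 1.37-fold, adjusted p = 0.000274, range 0.000128 to 0.810). That call was lost with no filter (0.810), where the other probe set led, and with values under log2 5 set to 5 (0.215). The called probe set entered through Sphere alone, so its direction was fixed by the filter.

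Receptors for these peptides were mostly under the limit. Of 11 receptor and peptide-handling genes, 10 were under it on all 6 arrays, among them VIPR1, VIPR2, GALR1, GALR2, GALR3, NPY1R, NPY2R and NPY5R. The exception was ADCYAP1R1, the receptor that prefers PACAP, with 2.93 and 2.95 in Monolayer, 7.92 and 7.08 in Sphere, and 7.60 and 7.62 in iCSC. It was at least 5.66-fold higher in Sphere than in Monolayer (limma, adjusted p = 2.77e-05), and it did not differ beyond its spread between iCSC and Sphere. Under the limit in Monolayer, ADCYAP1R1 could enter only through Sphere or iCSC, which favoured higher calls there.

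REST, the repressor of neural and neuroendocrine genes, had signals of 7.69 and 7.88 in Monolayer, 6.20 and 6.22 in Sphere, and 8.25 and 7.30 in iCSC. It was thus lowest on the Sphere arrays, where CHGA, CHGB, SCG2, SCG3, VIP and GAL were highest. The difference was -1.58 ± 0.31 from Monolayer to Sphere (log2, SE; limma, adjusted p = 0.00459, range over 17 alternatives 0.000540 to 0.0587) and 1.57 ± 0.31 for iCSC minus Sphere (adjusted p = 0.00816, alternatives 0.00101 to 0.0876). The first was lost without variance moderation (0.0587). The other was lost without it (0.0876), without Sphere replicate 1 (0.0575) and without Sphere replicate 2 (0.0541). CHGA and SCG3 stayed high in iCSC, where REST did not differ from Monolayer beyond its spread. The part of REST in these differences was not tested.

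The other regulators moved separately. INSM1, a zinc finger factor of neuroendocrine differentiation, had 2.32 and 2.34 in Monolayer, 10.77 and 9.60 in Sphere, and 10.01 and 10.73 in iCSC, exceeding Monolayer at least 36.4-fold in Sphere and at least 41.4-fold in iCSC (limma, adjusted p = 1.26e-05 and 1.54e-05). INSM1, under the limit in Monolayer, could enter only through Sphere or iCSC, which favoured this direction. Unlike CHGB, VIP and GAL, its iCSC arrays overlapped with those of Sphere. CREB1, which binds the cAMP element printed above, was 1.06 ± 0.17 higher in Sphere than in Monolayer (adjusted p = 0.00221). CRTC3, a coactivator of CREB, was lower, by a difference of -1.68 ± 0.09 (adjusted p = 1.33e-05). RCOR1, a corepressor that works with REST, fell by 0.67 ± 0.15 in iCSC relative to Sphere (adjusted p = 0.0146, alternatives 0.00246 to 0.0961), a call lost without Sphere replicate 1 (0.0664) or Sphere replicate 2 (0.0873). Of the 8 tested regulators, 3 were called higher and 3 lower in Sphere than in Monolayer, and 2 higher and 2 lower in iCSC than in Sphere. The shares over all tested genes were 30.0% higher and 29.1% lower, and 19.3% and 19.2%. With 8 genes nothing is read from these counts.

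Markers of other cells were read beside these results. PTPRC, the leukocyte phosphatase CD45, had 11.64 and 11.84 in Monolayer, 12.42 and 12.52 in Sphere, and 2.85 and 2.87 in iCSC, while the other 5 measured leukocyte markers were under the limit on all arrays. Of the 6 measured markers of gut and pancreatic endocrine cells, CHGA alone was above the limit, and INS, GCG, GAST, TTR and SST were under it throughout. Of 4 measured Schwann cell markers, SOX10, S100B and MAL were under it throughout. The other, the receptor ERBB3, had 5.15 and 5.21 in Monolayer, 4.32 and 4.89 in Sphere, and 7.74 and 7.08 in iCSC, where it was called higher than in Sphere (2.81 ± 0.29, adjusted p = 0.000583) and than in Monolayer (2.23 ± 0.29, adjusted p = 0.000952). YAP1, a marker of the mesenchymal state of neuroblastoma, was 11.05 and 11.05 in Monolayer, 8.48 and 8.48 in Sphere, and 10.58 and 10.19 in iCSC, and PRRX1, another, was 7.80 and 7.27, 11.87 and 12.02, and 10.11 and 10.46. Of the 7 tested markers of that state, 6 were called lower and 1, PRRX1, higher in Sphere than in Monolayer (limma). FOSL1 entered the test through Monolayer alone, so its lower call was fixed by the filter. RUNX2, with Sphere signals of 2.42 and 3.20, could not enter without a Monolayer array, which favoured its lower call. This count is therefore given as a description. In iCSC against Sphere 4 were called higher and 1 lower. The shares over all tested genes were 30.0% higher and 29.1% lower in Sphere against Monolayer, and 19.3% and 19.2% in iCSC against Sphere. Their part in the differences of the granins and peptides was not tested.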

How the data were processed

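The deposited values are log2 signals that the authors made with GCRMA, per the submitters' processing notes, which also name Partek. Their versions and settings are not given in the sources used. Total RNA was amplified and labelled with biotin, per the labels' protocols. GCRMA corrects each probe for background predicted from its bases, and it presses unexpressed probe sets into a narrow low band, which inflates log2 differences that start there. Where a culture had both arrays below log2 5, the fold is therefore a bound with values under 5 set to 5, written "at least", and the p beside it tests the deposited values.

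Groups came from the sample titles. Probe sets with a single symbol were renamed by Entrez identifier (41037 of 41091 matched, RefSeq, GRCh38.p14). A probe set entered with log2 5 or more on at least 2 of 6 arrays, 1 per gene, the highest by mean, which gave 10459 genes. A gene under log2 5 on both arrays of a culture could enter only through the other cultures, which favoured higher calls there. limma 3.58.1 (R 4.3.3) fitted culture means over all 6 arrays with eBayes (trend on mean signal; 3 residual degrees of freedom), with Benjamini-Hochberg adjustment over all genes. The fit was tested on simulated data. Named were all 10 genes, up to 4 called genes per list and comparison with the largest absolute difference, and, whatever their values, REST, INSM1, CPE, PCSK2, CADPS, PTPRN, HAND2, PRRX1, YAP1, PTPRC and SOX10. The nearest profiles were the 2 closest genes. Other marker and receptor genes were named after their values were seen. The genes and lists were chosen with earlier results of these data known. Figures were drawn with matplotlib 3.10.9.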

Additional observations from a re-analysis of the deposited data

How the results depend on the processing

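For the 7 tested genes in 3 comparisons, 17 alternatives were run, fewer for CHGA and VGF, whose probe sets end in s_at or x_at. Of the values they gave, 319 kept direction and side of the threshold, 28 lost the call, 1 gained it and 3 turned sign, in differences that had no call: SCG2 in iCSC against Monolayer (0.23 and 0.38; without single arrays -0.67 to 0.38) and VGF in Sphere against Monolayer (0.12; without single arrays -0.92 to 0.12). CRH, 1 of the other precursors, turned to 0.054 in iCSC against Sphere with no filter, where its other probe set led. In iCSC against Monolayer, 4 genes were called higher and 1 lower. CHGA and VGF could not be tested without probe sets ending in x_at or s_at, so their calls dropped out of the count in that setting. Without probe sets ending in x_at or s_at, and likewise without variance moderation, 2 were called higher and 0 lower, and leaving out single arrays gave 3 to 5 higher and 0 to 1 lower. Leaving out single arrays left 6 to 7 genes called lower in iCSC than in Sphere, and 6 higher in Sphere than in Monolayer. Over all genes, 4022 were called in iCSC against Sphere, 2281 without variance moderation, and 2574 to 3883 without single arrays. The cause was not tested.

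Counts of the lists moved by more than 1.5 times in places. Without x_at and s_at probe sets, the prohormone processing genes gave 1 call in each direction in place of 3 when either spheroid culture was set against Monolayer. CPE, PAM, CTSL and RNPEP had no probe set left to test in that setting, so these genes left the counts without being tested. Other neuropeptide precursors called higher in Sphere than in Monolayer numbered 0 to 6 over the alternatives, against 2, and those called lower in iCSC than in Sphere 0 to 4, against 1. Dense-core vesicle genes called higher in Sphere than in Monolayer numbered 5 to 11, against 8, and those called higher in iCSC than in Sphere 1 to 3, against 3. Regulators called lower in iCSC than in Sphere numbered 0 to 2, against 2.

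The labels state no pairing of the arrays by replicate number. Deviations from the culture means correlated at 0.02 between Monolayer and Sphere, -0.05 between Monolayer and iCSC, and 0.17 between Sphere and iCSC. Such values cannot settle whether arrays of the same number were grown or run together. With a replicate block, 6219 genes were called between Sphere and Monolayer, 4106 between iCSC and Sphere, and 5891 between iCSC and Monolayer, and the counts of the 7 genes stayed at 6 higher, 7 lower, and 4 higher with 1 lower. With 2 arrays per culture, the gap between the iCSC arrays limits what can be said of VIP and GAL in iCSC.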
